A study of Sus scrofa with 6 samples.

Results

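The genes described here are retinoid receptors, a retinoic acid binding protein and enzymes that make or clear retinoic acid, followed through 6 RNA-seq libraries of immature pig Sertoli cells, the somatic cells that surround and nourish germ cells in the testis. The 9 genes RARA, RARB, RARG, RXRA, RXRB, CRABP2, ALDH1A1, ALDH1A2 and CYP26B1 were chosen by name and role, with earlier results of these data known. They were looked up by pig Ensembl identifier, and 8 of the 9 were found among the 20731 genes of the table. The identifier of ALDH1A2 matched none of its rows, and that gene was not analysed here. Of the 6 libraries, 3 are labelled Control, with no dose or time stated, and 3 are labelled MT, from cells kept with 10 nM melatonin, the pineal hormone, for 36 h. What the Control cells received is not stated, nor is the origin of the replicates, which could be repeat libraries of 1 culture, so each p-value weighs a difference only against the scatter among libraries, and that scatter may be technical. In bulk RNA of this kind, fewer cells of a type and less RNA per cell cannot be told apart.

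Retinol, the circulating form of vitamin A, enters cells through the membrane receptor STRA6, is oxidised reversibly to retinal by retinol dehydrogenases, and is then oxidised irreversibly to retinoic acid by the ALDH1A enzymes. Retinoic acid is carried to the nucleus by CRABP2, where it binds retinoic acid receptors (RARs) that sit on DNA as pairs with retinoid X receptors (RXRs), and it is cleared by the CYP26 hydroxylases. In the testis, retinoic acid drives spermatogonia towards differentiation and meiosis, Sertoli cells are one of its sources, and CYP26B1 keeps it away from germ cells before birth.

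The totals recovered for the 6 libraries lay between 19579279 and 21500665 reads. Control 3 stood apart from the other 5 libraries: its correlation across genes with Control 1 and Control 2 was 0.938 and 0.939, against 0.952 to 0.975 with the MT libraries, and genes are not independent replicates. Its value lay outside the range of the other 5 libraries in 74.1% of the 10950 genes tested, and mitochondrial mRNAs took 2.72% of its reads against 4.35% to 5.56% elsewhere. Group differences of the members, and of the other genes where a difference is given, are therefore shown with and without Control 3. Of 19 Sertoli cell markers, 14 were matched and 7 had a mean of at least 1 FPKM (fragments scaled to gene length and to library size), among them AMH at 11.3 to 15.6 FPKM, WT1 at 10.0 to 12.8 and SOX9 at 1.61 to 2.40, while INHA, KITLG, DMRT1, DHH and NR5A1 were below 0.1 FPKM in all 6 libraries and FSHR and GATA4 were not matched. Of the other cell types that a testis culture could hold, endothelium had CDH5 and CLDN5 below 0.1 FPKM in all 6 libraries and 0 of 3 matched markers at 1 FPKM or more, with sums of 0.16 to 0.31 in Control and 0.15 to 0.32 in MT. Germ cell markers summed to 1.15 to 1.46 FPKM in Control and 1.42 to 1.72 in MT, with 1 of 5 matched markers at 1 FPKM or more (UCHL1) and DDX4 below 0.1. Macrophage markers summed to 9.80 to 12.4 FPKM in Control and 11.9 to 13.4 in MT, with 2 of 6 matched markers at 1 FPKM or more, CD68 at 3.18 to 5.30 and CD14 at 6.21 to 8.30, while CD163, CSF1R and C1QA were below 0.1 in all 6 libraries. Leydig cell markers summed to 3.93 to 4.39 FPKM in Control and 3.74 to 4.87 in MT. Of these, 2 of 4 matched markers were at 1 FPKM or more (STAR and CYP11A1), while CYP17A1 and HSD17B3 were below 0.1. Peritubular myoid markers summed to 174.8 to 280.1 FPKM in Control and 178.9 to 210.7 in MT, most of it TAGLN, highest in Control 3. Here 3 of 7 matched markers were at 1 FPKM or more (TAGLN, DES and MYLK), while MYH11 was below 0.1. Fibroblast markers summed to 16.0 to 18.2 FPKM in Control and 14.6 to 23.2 in MT, with 2 of 4 matched markers at 1 FPKM or more (COL1A1 and COL3A1) and PDGFRA and DCN below 0.1. The part of other cells in the values that follow was not tested.

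Of the 8 genes, 7 were detected, each at 1 FPKM or more in all 6 libraries: ALDH1A1, RARA, RXRB, RARG, RXRA, CYP26B1 and RARB, from the highest mean level to the lowest. CRABP2 did not reach 1 FPKM in any library. FPKM is scaled to gene length, so these levels can be compared between genes. The mean of ALDH1A1 over the 6 libraries was 96.9 FPKM, higher than 96.0% of tested genes, and 5.0 times that of RARA, the next gene. The least abundant detected gene, RARB, had a mean of 1.77 FPKM and stood above only 8.91% of tested genes. Neighbours in this order did not overlap between ALDH1A1 and RARA, between RARG and RXRA, between RXRA and CYP26B1, or between RARB and CRABP2. The ranges of RARA and RXRB overlapped, as did those of RXRB and RARG, yet the order held within each of the 6 libraries for both pairs. CYP26B1 and RARB also overlapped, with CYP26B1 higher in 5 of 6 libraries.

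**Figure D1:**
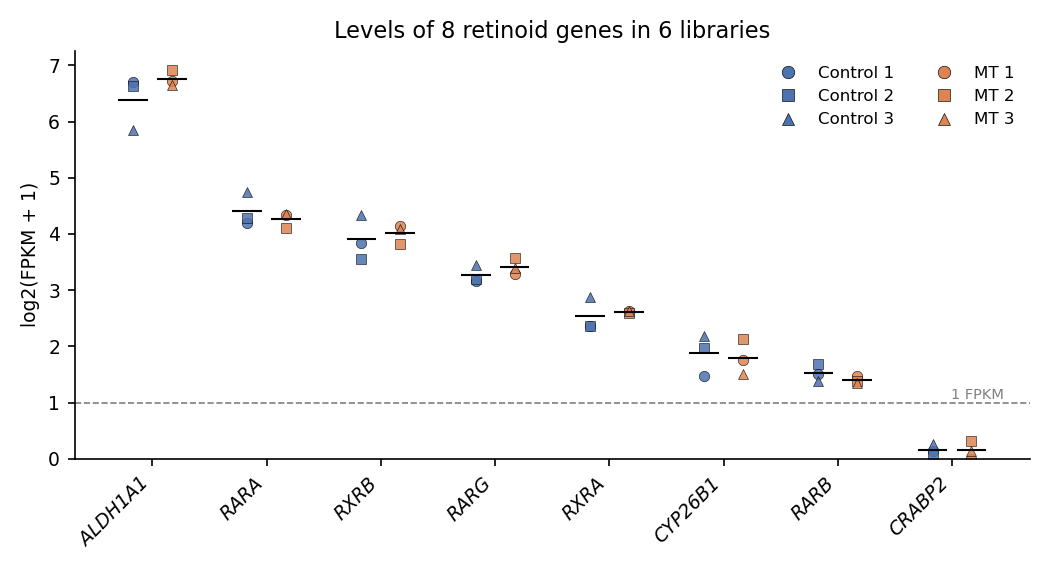
Expression of the 8 matched genes as log2(FPKM + 1), with 1 point per library (circle, square and triangle for replicates 1, 2 and 3, blue for Control and orange for MT) and a line at each group mean; the dashed line marks 1 FPKM. ALDH1A1 stands above the other genes in all 6 libraries, CRABP2 lies under 1 FPKM throughout, and the Control and MT points of every gene overlap.

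The comparison of MT with Control asked whether melatonin was accompanied by a change in these transcripts. No member passed the test: 0 of the 7 tested genes had an adjusted p under 0.05 in limma over all genes, where 0% of the 10950 tested genes did. None of the 7 had an unadjusted p under 0.05 either, as 517 genes (4.72%) did, and limma voom on the recovered reads also passed 0 of the 7 and had 0 of the 7 under an unadjusted 0.05. In 0 of the 7 did the 3 MT values lie on 1 side of the 3 Control values, against 11.2% of all tested genes. The median log2 difference, MT minus Control on the log2(FPKM + 1) scale, was 0.08 over the 7 members and 0.02 over all tested genes. Of the 7, 4 were higher and 3 lower, where 56% of all tested genes were higher. Every 95% interval held 0, and the intervals together ran from -0.63 to 0.93, so changes of moderate size in either direction remain within what 3 libraries a group could miss. With Control 3 left out, 10.9% of all tested genes passed and again 0 of the 7 members did. Of the 7, 3 had an unadjusted p under 0.05 there, where 36.2% of all tested genes did. In that fit 6 members were higher in MT and 1 lower, with a median log2 difference of 0.10, where 49.4% of all tested genes were higher. The balance turned when another Control library was left out, to 2 higher and 5 lower (median -0.034) without Control 2 and to 3 higher and 4 lower (median -0.0084) without Control 1. Of all tested genes, 57.8% were higher without Control 2 (median 0.033) and 59.4% without Control 1 (median 0.043). Sample weights from limma passed RXRB, RXRA and RARB, in a fit that passed 57.6% of all tested genes. The weights were 1.3, 4.76 and 0.052 for Control 1, Control 2 and Control 3, and 4.96, 0.514 and 1.22 for MT 1, MT 2 and MT 3. That fit thus rested mostly on Control 2 and MT 1.

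**Figure D2:**
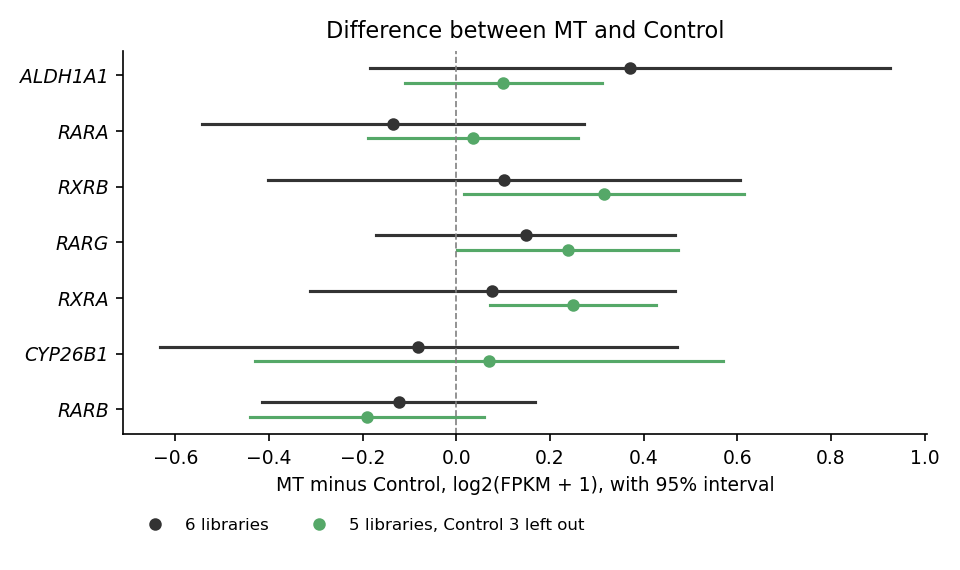
Difference MT minus Control on the log2(FPKM + 1) scale (x axis) for the 7 tested members, with the 95% interval of limma as a line; black uses the 6 libraries and green the 5 libraries left when Control 3 is left out. Every black interval crosses 0; with Control 3 left out, those of RXRB, RARG and RXRA lie above 0, with adjusted p of 0.12, 0.14 and 0.066.

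Among the enzymes, ALDH1A1 oxidises retinal to retinoic acid. The pig gene (ENSSSCG00000028996) lies on chromosome 1 from 226163347 to 226217342 in Sscrofa11.1. It stood at 102.7, 98.1 and 56.7 FPKM in Control replicates 1 to 3 and at 104.4, 119.6 and 100.1 in MT replicates 1 to 3, on 8914 to 18388 reads. The low value was that of Control 3 alone, and the groups overlapped. Control averaged 85.8 ± 25.4 and MT 108.0 ± 10.3 FPKM (SD, n = 3), a log2 difference of 0.37 (SE 0.23, interval -0.18 to 0.93, adjusted p 0.9998 in limma). The exact two-sided permutation test over samples gave p 0.20, where 3 against 3 libraries cannot go below 0.10. Without Control 3 the log2 difference was 0.10 (adjusted p 0.44 in limma), so 1 library set most of its size.

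CYP26B1 (ENSSSCG00000008311), the hydroxylase that clears retinoic acid, had 1.79, 2.93 and 3.54 FPKM in the Control libraries. In the MT libraries it had 2.40, 3.36 and 1.84 FPKM, on 174 to 368 reads over all 6. Its highest and lowest values were both in Control, and the MT values fell between them. The log2 difference was -0.08 (SE 0.23, interval -0.63 to 0.47), and it turned to 0.07 without Control 3 (adjusted p 0.83 in limma) and to 0.07 without MT 3. Of the members tested, CYP26B1 also had the widest interval in the fit without Control 3, from -0.43 to 0.57.

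Because ALDH1A1 and the CYP26 enzymes act on the supply and the removal of the same molecule, their summed levels were set side by side. ALDH1A3 was included as planned, and CYP26A1 was added after its values were seen. ALDH1A3, another enzyme that makes retinoic acid, was near 0 and rested on at most 1 read in any library. CYP26A1, the paralogue of CYP26B1, was at 2.23 to 4.33 FPKM, and the share of the CYP26 sum that came from CYP26B1 ranged from 34.4% to 60.1%. The ratio of ALDH1A1 plus ALDH1A3 to CYP26A1 plus CYP26B1 was 19.7 in Control 1, 18.3 in Control 2, 18.8 in MT 1, 21.4 in MT 2 and 20.1 in MT 3. In Control 3 it was 7.20, since that library had both the lowest ALDH1A1 level and the highest CYP26 sum, 7.87 FPKM against 4.99 to 5.59 in the others. Over those 5 libraries the sum thus spanned less than CYP26B1 alone, which ran from 1.79 to 3.36 FPKM there.

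**Figure D3:**
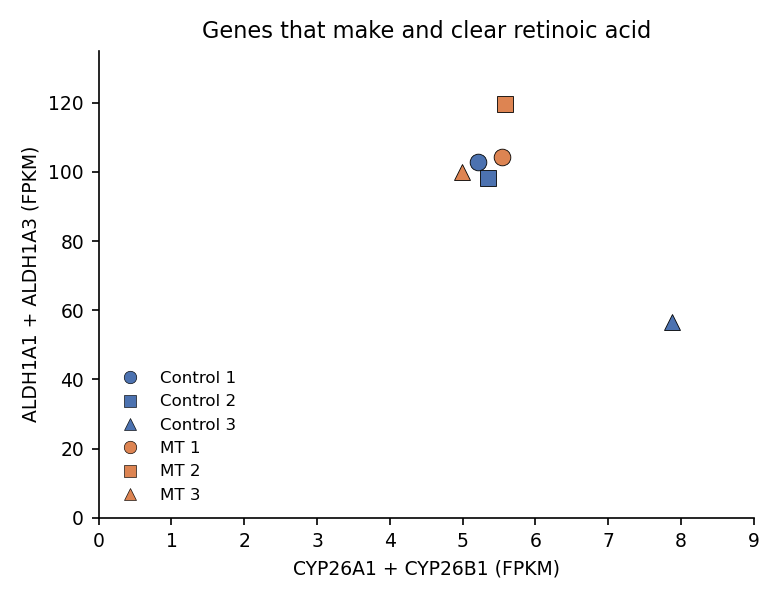
Summed FPKM of the genes that clear retinoic acid (CYP26A1 and CYP26B1, x axis) against those that make it (ALDH1A1 and ALDH1A3, y axis), with 1 point per library, blue for Control and orange for MT. Control 1, Control 2 and the 3 MT libraries lie together, between 98.1 and 119.6 FPKM on the y axis, and Control 3 lies apart at 56.7.

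The RARs bind retinoic acid directly. RARA (ENSSSCG00000017475, chromosome 12, 22047449 to 22085759), the broadly expressed receptor, stood at 17.2, 18.4 and 25.8 FPKM in Control and at 19.2, 16.3 and 19.4 in MT. Control 3 was the highest of the 6 and MT 2 the lowest. MT minus Control was -0.14 on the log2 scale (SE 0.17, interval -0.54 to 0.27), and it changed sign without Control 3, to 0.035.

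RARG (ENSSSCG00000000258, chromosome 5, 18436267 to 18458625, a locus that the RefSeq table classes as lncRNA), the receptor best known from skin and skeletal tissue, stood at 8.0, 8.13 and 9.92 FPKM in Control and at 8.72, 10.9 and 9.53 in MT. All 3 MT values were above those of Control 1 and Control 2, and Control 3 lay among them. The log2 difference was 0.15 (SE 0.13, interval -0.17 to 0.47), and 0.24 without Control 3, with an adjusted p of 0.14 in limma. Among all tested genes, 56.2% had their MT values on 1 side of Control 1 and Control 2.

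RARB (ENSSSCG00000011212, chromosome 13, 12336387 to 12507688) is itself a target of retinoic acid through an element in its promoter. It stood at 1.84, 2.22 and 1.63 FPKM in Control and at 1.79, 1.61 and 1.55 in MT, on 86 to 119 reads a library. The 3 MT values were below those of Control 1 and Control 2, and Control 3 lay with the MT libraries. Of all tested genes, 56.2% had their MT values on 1 side of those 2 libraries. RARB had a log2 difference of -0.12 (SE 0.12, interval -0.41 to 0.17), and without Control 3 of -0.19 (adjusted p 0.23 in limma). It was below 0 in every alternative run, between -0.29 and -0.04, and the alternatives reuse the same libraries.

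Among the RARs, RARA made up 56.5% to 69.1% of the summed FPKM in each library, RARG 26.6% to 37.9% and RARB 4.35% to 7.74%. The largest RARG share was in MT 2, and the largest RARA share in Control 3. Summed RAR FPKM was 31.0 ± 5.52 in Control and 29.7 ± 0.86 in MT (SD, n = 3), with Control 3 at 37.3 and the other 5 libraries at 27.1 to 30.5.

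The RXRs are the partners of the RARs and of several other nuclear receptors. RXRB (ENSSSCG00000001474, chromosome 7, 25236005 to 25242842) stood at 13.4, 10.8 and 19.3 FPKM in Control and at 16.6, 13.2 and 16.0 in MT. Both extremes were in Control, with Control 3 the highest and Control 2 the lowest. RXRB had a log2 difference of 0.10 (SE 0.21, interval -0.40 to 0.61), 0.32 without Control 3 (adjusted p 0.12 in limma) and -0.08 without Control 2.

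RXRA (ENSSSCG00000038220, chromosome 1, 273698842 to 273797622) stood at 4.14, 4.14 and 6.36 FPKM in Control and at 5.16, 5.02 and 5.16 in MT. Control 1 and Control 2 were the lowest, on 274 and 280 reads, and the MT libraries lay between them and Control 3. Here too, 56.2% of all tested genes had their MT values on 1 side of Control 1 and Control 2. The group means were 4.88 ± 1.28 and 5.11 ± 0.085 FPKM (SD, n = 3), a log2 difference of 0.08 (SE 0.16, interval -0.31 to 0.47, adjusted p 0.9998 in limma). Without Control 3 it was 0.25 (SE 0.075), with an unadjusted p of 0.013 and an adjusted p of 0.066 in limma. Quantile normalisation of those 5 libraries, tried after the data were seen, brought the adjusted p to 0.048 with a log2 difference of 0.29, in a fit that passed 12.2% of all tested genes. Voom on the recovered reads of the same libraries passed 21.6% of them and gave RXRA 0.083. Without Control 1 or Control 2 the log2 difference was -0.01. RXRB made up 72.2% to 76.3% of the summed RXR FPKM in each of the 6 libraries, with Control 3 at 75.2%.

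CRABP2 (ENSSSCG00000006472, chromosome 4, 93388198 to 93393861), the carrier that hands retinoic acid to the RARs, had 2, 1 and 4 reads in Control replicates 1 to 3 and 0, 5 and 2 in MT replicates 1 to 3. The highest value was 0.25 FPKM. A count of 0 in MT 1 allows a level of up to 0.14 FPKM (3 reads, counting error only), so CRABP2 was at or near the detection limit in every library and no difference between the groups could be read at this depth.

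Control 3 lay outside the range of the other 5 libraries in 5 of the 7 detected members, which is 71.4% of them and close to the 74.1% of all tested genes. It was above the others for RARA, RXRB, RXRA and CYP26B1 and below them for ALDH1A1. Relative to the mean of Control 1 and Control 2, Control 3 had 1.45 times the FPKM of RARA, 1.60 times that of RXRB, 1.53 times that of RXRA and 0.56 times that of ALDH1A1. Its log2 deviation for ALDH1A1 was -0.81, larger in size than in 86.0% of tested genes, and that for RARG was 0.27, larger than in 31.8%.

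**Figure D4:**
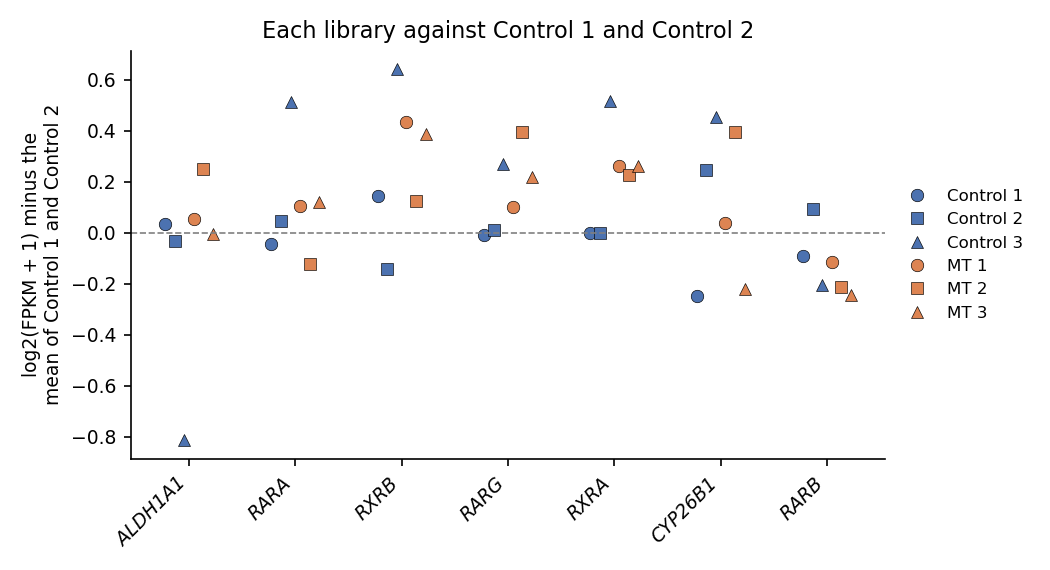
Level of each tested member in each library as log2(FPKM + 1) minus the mean of Control 1 and Control 2 (y axis), with blue points for Control and orange for MT. Control 3 (blue triangle) is the highest point for RARA, RXRB, RXRA and CYP26B1 and the lowest for ALDH1A1, at -0.81, while the MT points lie between -0.24 and 0.44.

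The genes whose pattern over the 6 libraries was most like that of ALDH1A1 were ZNF566 (Pearson r 0.998), SMIM7 (0.995) and DSTN (0.995), and 779 of 9482 compared genes had an r above 0.9. For RARA they were SOCS3 (0.998), MRPS12 (0.996) and ITPKA (0.996), with 881 genes above 0.9. All 6 of these genes had their extreme value in Control 3, the lowest for the 3 like ALDH1A1 and the highest for the 3 like RARA. The correlations are descriptions over 6 libraries from shared conditions, and without Control 3 they were 0.93 to 0.97 for ALDH1A1 and 0.988 to 0.999 for RARA.

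Beyond these members, 39 other genes of retinoid uptake, storage, oxidation and clearance were listed, of which 26 were matched and 14 had a mean of at least 1 FPKM. Of the 12 matched genes below that level, 10 were under 0.1 FPKM in all 6 libraries, among them LRAT, which stores retinol as esters, and ALDH1A3. The cellular carriers CRABP1 and FABP5 were not matched and not analysed here. No gene of this list passed over 6 libraries (0 of 14, with 0 under an unadjusted p of 0.05), and the median log2 difference was 0.06 with 8 higher and 6 lower, against 0.02 over all tested genes. The most abundant were ADH5, a formaldehyde and alcohol dehydrogenase, with Control 37.6 ± 4.20 and MT 39.2 ± 2.10 FPKM, SCARB1, a lipid receptor that also takes up carotenoids, at 32.3 ± 5.26 and 29.3 ± 1.21, and POR, the electron donor of microsomal P450 enzymes such as the CYP26 family, at 25.6 ± 3.63 and 28.4 ± 0.64 (SD, n = 3). STRA6, the retinol uptake receptor, was present at 13.5 to 18.7 FPKM, and RDH10, the main retinol dehydrogenase of the embryo, at 3.33 to 5.0 (both picked for their roles after the values were seen).

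**Figure D5:**
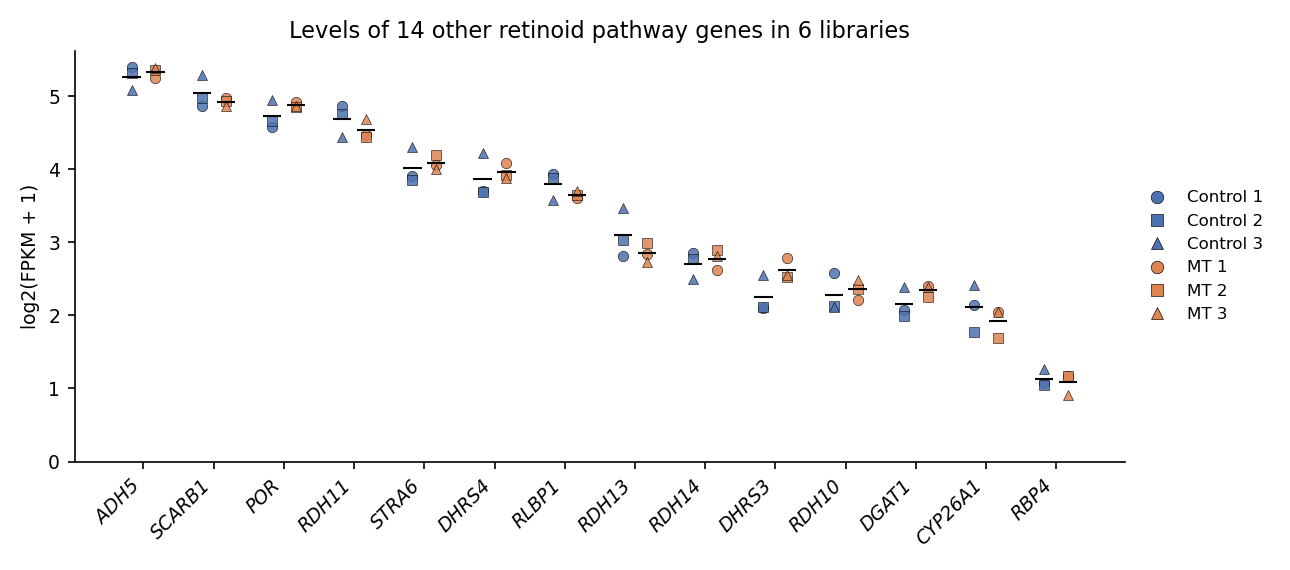
Expression of the 14 tested genes of the wider retinoid pathway as log2(FPKM + 1), with 1 point per library (blue Control, orange MT; circle, square and triangle for replicates 1 to 3) and a line at each group mean. The Control and MT points overlap for all 14 genes. The 3 MT points lie above Control 1 and Control 2 for 5 genes and below them for 2, where 56.2% of all tested genes had them on 1 side. DHRS3 is 1 of the 5, with Control 3 among its MT points.

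DHRS3 (chromosome 6, 72556234 to 72599233), which reduces retinal back to retinol and is itself induced by retinoic acid, had the smallest p of the pathway list. It stood at 3.28, 3.32 and 4.88 FPKM in Control and at 5.91, 4.76 and 4.89 in MT, on 120 to 237 reads. Control 3 again lay with the MT libraries, so the groups overlapped, by 1 library. Over 6 libraries DHRS3 had a log2 difference of 0.37 (SE 0.16, interval -0.02 to 0.76, adjusted p 0.9998 in limma). Without Control 3 it was 0.52 (SE 0.10, adjusted p 0.035 in limma), the only call among the 14 genes in that fit, a share of the list (1 of 14) that can be set beside the 10.9% of all tested genes called there. RDH13, a mitochondrial retinal reductase, and DGAT1, which esterifies diacylglycerol and retinol, had the next smallest p, with log2 differences of -0.25 and 0.19 over 6 libraries and of -0.07 and 0.31 without Control 3 (adjusted p 0.65 and 0.062 in limma). The median of the list was 0.00067 without Control 3, with 7 higher and 7 lower.

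Of 29 genes reported as responsive to retinoic acid, 24 were matched and 16 tested. Of the genes listed beside the members, 5 are in 2 lists, DHRS3 among them, so counts of the lists are not independent. Of the 16, 0 passed over 6 libraries, and 1 had an unadjusted p under 0.05, where 4.72% of all tested genes did. The median log2 difference was 0.04, with 9 higher and 7 lower. In 3 of the 16 (18.8%) the groups did not overlap, against 11.2% of all tested genes: ICAM1, an adhesion molecule also driven by NF-kB, BHLHE40, a repressor of transcription, and HOXB5, a homeobox factor. ICAM1 stood at 73.1, 83.2 and 101.0 FPKM in Control and at 69.0, 63.4 and 67.6 in MT. The log2 difference was -0.35 (SE 0.14, unadjusted p 0.041, adjusted p 0.9998 in limma), and -0.22 without Control 3, its highest library (SE 0.080, unadjusted p 0.027, adjusted p 0.097). BHLHE40 stood at 79.7, 88.0 and 82.8 FPKM in Control and at 74.2, 73.9 and 69.1 in MT. The log2 difference was -0.20 (SE 0.097), and -0.21 without Control 3 (adjusted p 0.094 in limma). HOXB5, named for its lack of overlap, stood at 1.54 ± 0.071 and 1.88 ± 0.10 FPKM (SD, n = 3). EGR1, an immediate early transcription factor and the third most abundant of the list, stood at 19.7 ± 3.91 and 15.2 ± 1.81 FPKM (SD, n = 3). Its groups overlapped, and Control 3 was its highest library at 24.2 FPKM. EGR1 had a log2 difference of -0.34 (SE 0.16) over 6 libraries and of -0.20 without Control 3 (adjusted p 0.22 in limma). Without Control 3 the median of the list was 0.00094, with 8 higher and 8 lower. In that fit 2 of the 16 passed, DHRS3, the call already given for the pathway list, and RARRES2, where 10.9% of all tested genes passed. RARRES2, the precursor of chemerin, named because it passed there, had a log2 difference of 0.64 (adjusted p 0.026 in limma) against 0.32 over 6 libraries, and Control 3 had its highest value, 3.54 FPKM against 2.34 to 2.79 in MT and 1.26 to 1.40 in the other Control libraries, on 22 to 65 reads.

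The 17 listed nuclear receptors that pair with RXRs or compete with them gave 13 tested genes, with 0 past the adjusted threshold over 6 libraries. Of the 13, 2 had an unadjusted p under 0.05, where 4.72% of all tested genes did. The median log2 difference was 0.09, with 10 higher and 3 lower, where 56% of all tested genes were higher. It was 0.23 without Control 3, again with 10 higher and 3 lower, where 49.4% of all tested genes were higher. With sample weights it was 0.28, and without Control 1 and without MT 3 it was 0.022 and 0.023. Over all tested genes the medians of those fits, in the same order, were -0.0037, 0.0011, 0.043 and 0.011. The 2 under an unadjusted p of 0.05 were PPARA (chromosome 5, 3302755 to 3321091), a fatty acid sensor, and NR1H4 (chromosome 5, 83607222 to 83732668), the bile acid receptor FXR. PPARA stood at 2.46, 2.10 and 1.69 FPKM in Control and at 3.04, 2.95 and 3.55 in MT. The log2 difference was 0.44 (SE 0.14, unadjusted p 0.014, adjusted p 0.82 in limma). NR1H4 stood at 2.23, 2.15 and 1.07 FPKM in Control and at 3.05, 2.97 and 3.27 in MT. The log2 difference was 0.57 (SE 0.19, unadjusted p 0.020, adjusted p 0.90 in limma). Control 3 was the lowest library for both genes, on the far side from MT, as it was for ALDH1A1. Without Control 3 the log2 difference of NR1H4 was 0.36 (adjusted p 0.047 in limma) and that of PPARA 0.35 (0.067). NR1H4 was the only 1 of the 13 to pass in that fit, where 10.9% of all tested genes passed. In 3 of the 13 (23.1%, against 11.2% of all tested genes) the groups did not overlap, these 2 and PPARG, the receptor of adipocyte differentiation, with Control at 8.75 ± 0.39 and MT at 7.64 ± 0.31 FPKM (SD, n = 3). PPARG had a log2 difference of -0.17 over 6 libraries and -0.18 without Control 3 (adjusted p 0.14 in limma). The most abundant of the list were NR1H2, an oxysterol receptor, at 32.0 ± 6.73 and 36.2 ± 4.25 FPKM, PPARD at 20.4 ± 6.85 and 18.0 ± 2.53, and VDR, the vitamin D receptor, at 17.5 ± 4.42 and 17.7 ± 1.67.

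Of 20 coregulators through which these receptors repress or activate genes, 18 were matched and 17 tested, with 0 past the adjusted threshold and 0 under an unadjusted p of 0.05. The median log2 difference was 0.04, with 10 higher and 7 lower. NCOA1, a coactivator, had the smallest p and did not overlap between the groups, with 1.19, 1.16 and 1.15 FPKM in the Control libraries and 1.44, 1.46 and 1.74 in the MT libraries. Its log2 difference was 0.23 (SE 0.11), and 0.23 without Control 3 (adjusted p 0.16 in limma). It was the only one of the 17 without overlap (5.88%, against 11.2% of all tested genes). PML and NCOA2, the next by p, had log2 differences of 0.16 and 0.09 over 6 libraries and of 0.26 and 0.03 without Control 3 (adjusted p 0.062 and 0.84 in limma). ACTN4, an actin crosslinker that also binds nuclear receptors, stood at 73.8 ± 23.0 and 75.1 ± 5.30 FPKM, and NCOR1, a corepressor, at 22.1 ± 3.47 and 23.6 ± 0.43 (SD, n = 3). Without Control 3, 0 of the 17 passed in limma, with 6 under an unadjusted p of 0.05, where 36.2% of all tested genes were, and voom on the reads of those 5 libraries passed 3, where it passed 21.6% of all tested genes. The median of the list in that limma fit was 0.058, with 13 higher and 4 lower, and without Control 1 it was -0.0060, with 8 higher and 9 lower. Of all tested genes, 49.4% were higher without Control 3 and 59.4% without Control 1.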

How the data were processed

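The authors deposited FPKM, fragments scaled to gene length and library size, per library without pooling, per the file headers, from bcl2fastq, HISAT2, featureCounts and Subread on Sscrofa11.1, per the submitters' processing notes. Versions, annotation release and strand setting: not given in the sources used here. Scaling to the library total lets abundant transcripts move all other values. Of 20731 genes, 13173 (63.5%) received a symbol by Ensembl identifier. Positions are those of the RefSeq annotation of Sscrofa11.1 by symbol, with no entry for CYP26B1, and no sequence table or genome was used. Whole reads were recovered from the steps of the FPKM values, within 0.01 of a whole number for 100.0% of tested genes. A gene whose 6 counts share a divisor may have been recovered too low by that factor.

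The 10950 genes averaging 1 FPKM or more were compared with limma 3.58.1 (R 4.3.3) on log2(FPKM + 1), which understates changes of low genes, using eBayes with trend and group as its only term, two-sided, and Benjamini-Hochberg adjustment over all of them at 0.05. The model was tested on simulated data with equal spread in every library, which held no library like Control 3. Members, lists and rules were chosen with earlier results of these data known. From each list the text names genes past the threshold or, with none, the 3 with the smallest p, and the 3 most abundant, and others are marked. A gene that this rule names is not reported here. Like patterns were sought for the 2 most abundant members. Another 18 planned and 2 added alternatives were run. Python 3.11.15 with scipy 1.17.1 made the permutation tests and matplotlib 3.10.9 the plots.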

Additional observations from a re-analysis of the deposited data

How the results depend on the processing

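With the 6 libraries, other pseudocounts, filters, scalings and variance models passed 0 genes and 0 members, as did voom on recovered reads. Sample weights were highest for Control 2 (4.76) and MT 1 (4.96) and lowest for Control 3 (0.052). Weighting samples passed 6309 genes (57.6%) and 3 of 7 members (RXRB 0.48, RXRA 0.25, RARB -0.20). It also passed 7 of 14 pathway genes, 10 of 17 coregulators, 8 of 16 targets and 10 of 13 partner receptors. Leaving out 1 library passed 0 to 1194 genes (10.9%), 0 members, 0 to 1 pathway genes, 0 coregulators, 0 to 2 targets and 0 to 1 partners. Each call was made without Control 3, and DHRS3 counts among both the pathway genes and the targets. The 5 libraries without Control 3, after quantile normalisation, passed 1333 genes (12.2%), 1 member (RXRA), 2 pathway genes, 2 coregulators, 2 targets and 2 partners. By voom they passed 2369 genes (21.6%), 0 members, 3 pathway genes, 3 coregulators, 1 target and 3 partners. Both of these settings were chosen after seeing the data.

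Signs turned as follows, and the cause was not tested. With sample weights the log2 differences were 0.062 for RARA, -0.049 for ADH5 and 0.19 for PPARD. The 5 libraries without Control 3 gave, quantile normalised, 0.041 for RARA, 0.10 for CYP26B1, -0.023 for ADH5 and 0.12 for PPARD, and by voom 0.037, 0.096, -0.026 and 0.13, with 0.0016 for SCARB1. Leaving out each library in turn gave ranges of -0.24 to 0.035 for RARA, -0.076 to 0.32 for RXRB, -0.0090 to 0.25 for RXRA, -0.28 to 0.070 for CYP26B1, -0.025 to 0.13 for ADH5, -0.21 to 0.0016 for SCARB1, -0.076 to 0.31 for ACTN4, -0.26 to 0.12 for PPARD and -0.055 to 0.23 for VDR. The median over the members turned to -0.034 without Control 2 and -0.0084 without Control 1, that of the pathway genes to -0.010 and that of the targets to -0.016 without Control 2, and that of the coregulators to -0.0060 without Control 1. ALDH1A1, RARG and RARB kept their sign in all 20 alternatives.

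Whether the replicate numbers pair the libraries could not be told, since deviations within a group of 3 libraries depend on each other. Deviations of same-numbered libraries correlated at -0.44, 0.63 and 0.34, and those of differently numbered libraries at -0.625 to 0.5. With the replicate block 0 genes and 0 members passed, ALDH1A1 having an unadjusted p of 0.088 in limma. By their deviations within a group, MT 1 correlated best with Control 3 (0.485), MT 2 with Control 2 (0.632) and MT 3 with Control 3 (0.338). Depth limits CRABP2, with at most 5 reads a library, and RARB, with 86 to 119.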
